A study of Homo sapiens with 37 samples.

Results

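The cytosolic ribosomal protein genes were examined here as a family in K562 cells with and without a knockout of ZBTB7A. A gene belonged to the family if its identifier in the table of UMI counts carried an RPL or RPS symbol followed by digits and at most 1 letter (A, X or L), or was RPLP0, RPLP1, RPLP2 or RPSA, with pseudogenes and the RPS6 kinases left out. The rule used no measured value. It gave 78 of the 32055 genes in the table, and 3 more annotated genes that meet it are not analysed here. By their names the 78 comprised 30 small subunit proteins, 41 large subunit proteins, 3 proteins of the P stalk and 4 paralogs (RPS27L, RPL39L, RPL3L and RPL10L).

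K562 is an erythroleukemia cell line that carries the BCR-ABL1 fusion and is used as a model of early erythroid cells. ZBTB7A (also LRF or Pokemon) is a zinc finger repressor of transcription. The KO group (26 libraries) came from K562 cells electroporated with a Cas9 plasmid, px458, that carried 1 of 2 gRNAs against ZBTB7A, and the control group (11 libraries) from cells that received the empty vector. Cas9 and GFP were therefore introduced in both groups, and single GFP+ cells were sorted and expanded. The labels do not say which clone or gRNA a library came from and give no replicate number, so p-values measure only the spread between these libraries, which may be technical, and several libraries of 1 clone cannot be told apart from several clones. Libraries are named by group or by the 6-base sample barcode that is their label.

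The ribosome reads mRNA and joins amino acids, with the small subunit decoding the message and the large subunit forming the peptide bond. Each subunit needs its proteins in near equal numbers, and most ribosomal protein mRNAs begin with a 5′ terminal oligopyrimidine (TOP) tract, a C followed by a run of C and T, through which mTOR and LARP1 control their translation together. In red cell precursors ribosome supply has particular weight, since loss of 1 copy of any of several of these genes causes Diamond-Blackfan anemia.

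The TOP tract is the sequence that the family is known for, so the transcription starts of 15 members are shown, from RefSeq on GRCh38.p14. Of the 78 members, 61 had a promoter entry. A tract, taken as C followed by at least 4 pyrimidines and beginning within 5 bases of an annotated start on the gene's strand, was found for 51 of the 61 (83.6%), against 25.2% of all 27305 genes with an entry. At the annotated start itself the shares were 72.1% and 5.14%. RPL34, RPS19, RPL11 and RPL10 had several annotated starts. For these the start nearest to a tract was picked, and then the longest tract, so the choice favours a tract. Each window below runs 5′ to 3′ from 10 bases before the start through the first 20 transcribed bases, with the tract in capitals.
RPS27 (chr1:153990752-153990781, plus strand): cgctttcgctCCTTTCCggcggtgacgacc
RPS27L (chr15:63157458-63157487, minus strand): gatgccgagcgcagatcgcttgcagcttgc
RPS14 (chr5:150449720-150449749, minus strand): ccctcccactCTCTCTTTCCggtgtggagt
RPS19 (chr19:41860245-41860274, plus strand): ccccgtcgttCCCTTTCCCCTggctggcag
RPS21 (chr20:62387093-62387122, plus strand): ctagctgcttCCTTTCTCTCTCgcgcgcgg
RPS6 (chr9:19380217-19380246, minus strand): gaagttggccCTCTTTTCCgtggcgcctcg
RPL13A (chr19:49487598-49487627, plus strand): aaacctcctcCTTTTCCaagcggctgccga
RPL34 (chr4:108620566-108620595, plus strand): cttttttcttCCTCTTCCggggacgttgtc
RPL36 (chr19:5690285-5690314, plus strand): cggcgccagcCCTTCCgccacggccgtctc
RPL39 (chrX:119791611-119791640, minus strand): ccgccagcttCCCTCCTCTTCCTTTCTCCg
RPL10 (chrX:154398367-154398396, plus strand): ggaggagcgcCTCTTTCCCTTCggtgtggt
RPL11 (chr1:23691796-23691825, plus strand): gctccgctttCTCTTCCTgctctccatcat
RPLP0 (chr12:120201092-120201121, minus strand): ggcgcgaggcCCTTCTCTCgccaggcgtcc
RPLP1 (chr15:69452808-69452837, plus strand): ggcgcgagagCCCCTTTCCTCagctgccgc
RPLP2 (chr11:809957-809986, plus strand): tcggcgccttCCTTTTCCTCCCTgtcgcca
The first pair contrasts RPS27 with its paralog RPS27L, whose window holds no tract under this definition. The windows from RPS14 to RPL39 belong to members that are described below, and RPL10, RPLP1 and RPLP2 were the only tested members with a log2 fold change above 0. A match is a description of these letters at an annotated start, not of the start used in these cells.

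Depth and the check of the labels bear on all values that follow. Libraries held 563235 to 4710809 gene UMIs, a UMI being a tag that counts 1 captured mRNA molecule at its 3′ end, so that levels of different genes can be compared without dividing by length. ZBTB7A itself had 62 to 314 UMIs in KO libraries and 21 to 296 in controls and did not pass the test (log2 fold change 0.12, standard error 0.09, edgeR adjusted p = 0.331). A 3′ tag lies outside the region cut by Cas9 and checks neither the cut nor the protein. All 9 measured genes of an erythroid marker list were detected, at 2885 to 9504 CPM (counts scaled to a common library size) in sum in KO and 3960 to 8717 in control libraries. Lists of lymphoid, fibroblast and granulocyte or monocyte markers each summed to at most 7.38 CPM in any library. The epithelial list held 93.9 to 210 CPM in KO and 165 to 285 in control libraries, nearly all from EPCAM, and KRT5 had no UMI in KO libraries. In bulk libraries fewer cells of a type and less RNA per cell cannot be told apart.

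Summed as a share of all gene UMIs, the 78 members were lower in KO than in control libraries. In control libraries the share was lowest at 8.88%, with a median of 9.59% and a highest value of 10.6%. In KO libraries it was lowest at 8.51%, with a median of 9.03% and a highest value of 9.69%. The groups overlapped: 8 KO libraries lay below the lowest control, 25 of 26 lay below the control median and 0 lay above the highest control. On average KO libraries held 9.03% ± 0.297 (SD, n = 26) and controls 9.61% ± 0.526 (SD, n = 11), a difference of -0.576 percentage points. Both subunits contributed, since large subunit genes took 4.36% and 4.66% of UMIs on average in KO and control libraries and small subunit genes 3.73% and 4.03%.

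The share was also set within barcode classes, because the 6-base barcodes were unevenly spread over the groups. Among barcodes with 0 to 2 G or C bases (12 KO and 8 control libraries) the share ran from 8.64% through a median of 9.03% to 9.69% in KO and from 9.05% through 9.58% to 10.4% in control libraries. The difference of means in this class was -0.534 percentage points. Barcodes with 4 to 6 G or C bases gave 12 KO libraries but only 1 control library, and those with 3 gave 2 and 2, too few to compare. The control libraries TCTGCA and TACTAT had the highest shares, 10.6% and 10.4%. Without them, a choice that by construction brings the groups closer, the difference was -0.377 percentage points.

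**Figure D1:**
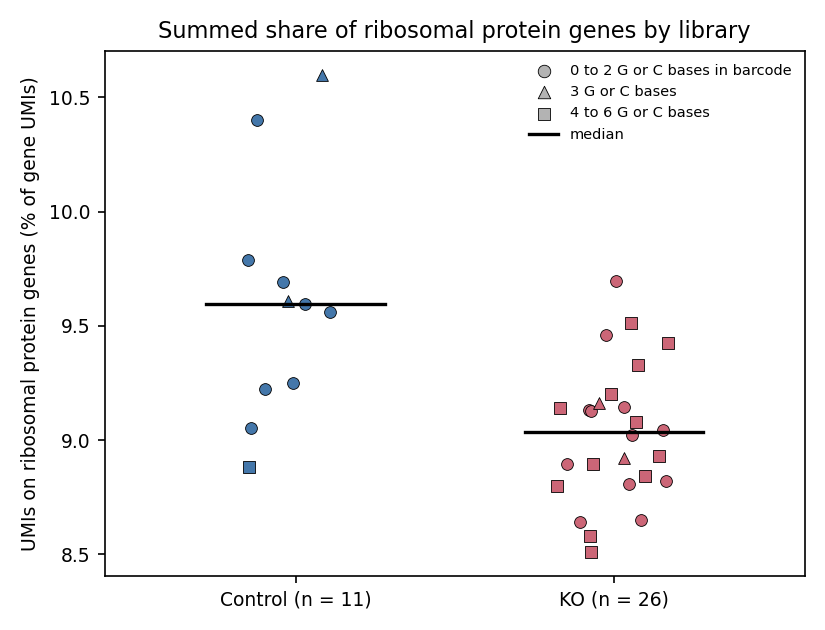
Share of each library's gene UMIs that fell on the 78 ribosomal protein genes, by group; each point is 1 library, its shape gives the number of G or C bases in the barcode, and the bar is the group's median. KO libraries lie between 8.51% and 9.69% and controls between 8.88% and 10.6%, with the 2 highest controls above every other library.

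Gene by gene, many ribosomal protein genes fell in KO, each by a small amount, and none rose. Of the 76 members that passed the filter on low counts, 43 were lower in KO and 0 higher at an adjusted p under 0.05 (edgeR quasi-likelihood test, Benjamini-Hochberg over 10661 genes). Over all genes tested, 16.2% were lower and 17.7% higher. At an unadjusted p under 0.05, 49 members were lower and 0 higher, and limma-voom and DESeq2 each called 46 lower and 0 higher. Most members are abundant, and of the 2237 genes whose mean level was 100 CPM or more, 24.7% were lower. The called members fell by 5.75% to 29.0%: 20 by less than 10%, 17 by 10 to 20% and 6 by more. The log2 fold change was below 0 for 73 of the 76, against 51% of all genes, and its median was -0.13 over members and -0.0046 over all genes. RPL10, RPLP1 and RPLP2 were above 0, and none of these 3 passed the test. The value of RPL10 averages libraries at separate levels in both groups, given below.

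For most members the ranges of both groups overlapped. For 66 of the 76 members no KO library lay above the highest control. For 46 members at least 22 of the 26 KO libraries lay below the control median. The shares of all tested genes that met these conditions were not counted. Whether members differ from other genes in these counts was therefore not tested. Only 7 members had 13 or more KO libraries below the lowest control, close to the 10.1% of all genes for which this held. The study's second threshold, an absolute log2 fold change above 0.5, was passed together with the first by 0 members in edgeR and DESeq2 and by RPS27L in limma-voom, against 10.2% of all genes in edgeR. RPS27L, at -0.49, lay just inside that threshold, and the next member, RPL39, was at -0.35.

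How many members were called depended on a few libraries. Without the control libraries TCTGCA and TACTAT the number lower was 18 (13.5% of all genes), and within the AT-rich barcodes (0 to 2 G or C bases) it was 20 (12.1% of all genes). Without 6 KO libraries described below it was 34 (14.4% of all genes). In each of these settings 0 members were higher. Over all libraries 24.7% of the genes of 100 CPM or more were lower, a share not computed for these settings. Whether members exceed other abundant genes there was therefore not tested. Lower in all 4 fits were 13 members, among them RPS27L, RPL36, RPS21, RPS15, RPL13A, RPL38, RPS20, RPL8, RPS9, RPL3, RPL10A and RPS16.

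**Figure D2:**
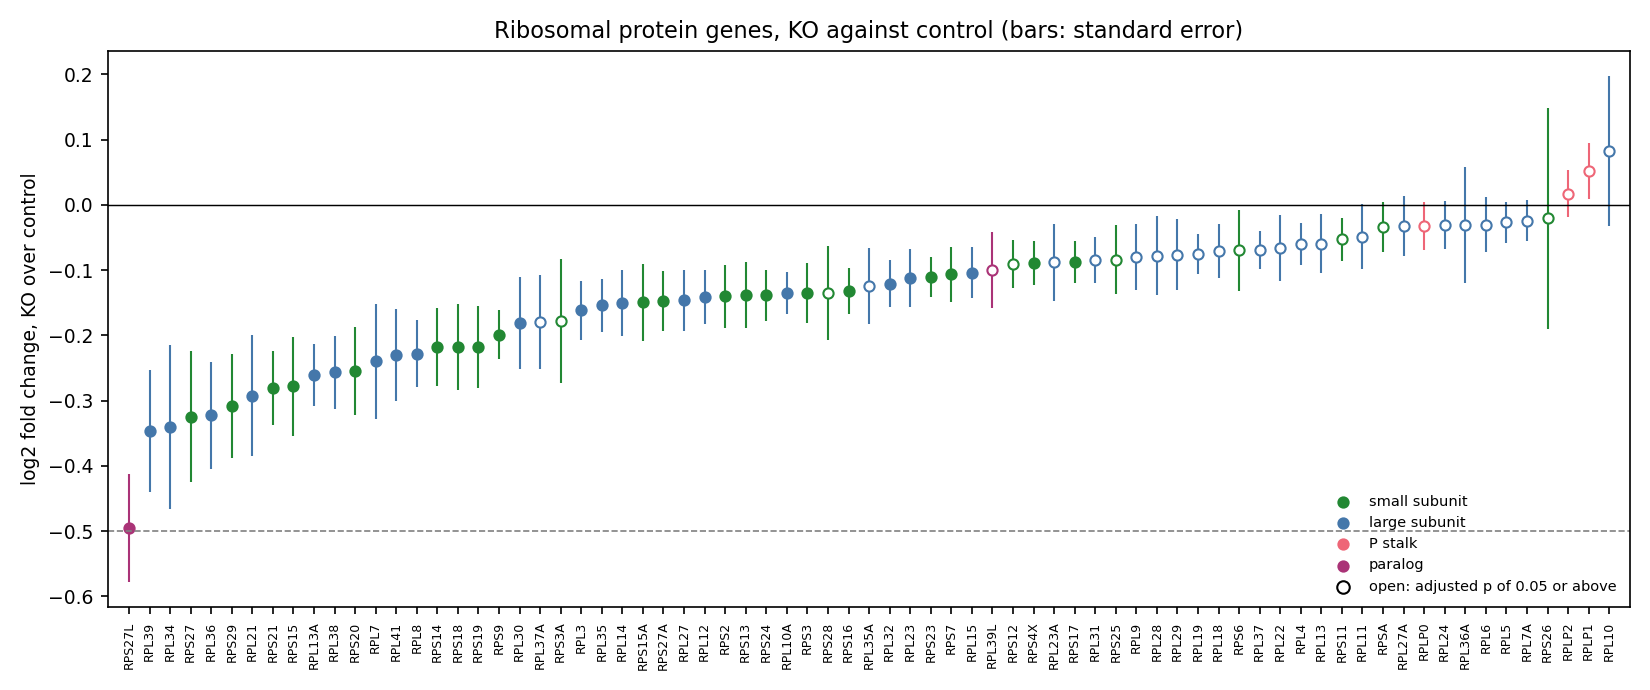
Log2 fold change of KO over control for 73 of the 76 tested ribosomal protein genes in order of size, with standard errors from edgeR; colours give the role, filled points passed an adjusted p under 0.05, and the dashed line marks -0.5. RPS27L stands apart at -0.49, most members lie between -0.35 and 0, and 3 lie above 0.

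Small subunit genes had the larger share of calls. All 30 had a log2 fold change below 0, 22 were lower in KO, and their median was -0.14. RPS14, whose loss causes the anemia of the 5q deletion syndrome, was the most abundant member of the family. Its level was 11.88, 12.17 and 12.39 log2 CPM in the lowest, median and highest control library and 11.67, 11.92 and 12.33 in KO. It fell by 0.22 on the log2 scale (standard error 0.06, edgeR adjusted p = 0.00429), with 23 of 26 KO libraries below the control median. RPS14 is not among the 13 members that were lower in all 4 fits. RPS19, the gene most often mutated in Diamond-Blackfan anemia, ran from 11.38 through 11.82 to 12.12 in controls and from 11.31 through 11.61 to 11.96 in KO libraries, an overlap over most of the range. Its fold change was also -0.22 (standard error 0.06, edgeR adjusted p = 0.00671), with an adjusted p of 0.0748 without TCTGCA and TACTAT.

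RPS27, a zinc finger protein of the small subunit, had the largest fall of this list. Its levels were 5.777, 6.162 and 6.601 in the lowest, median and highest control and 5.13, 5.90 and 6.54 in KO libraries. The log2 fold change of -0.32 (standard error 0.10, edgeR adjusted p = 0.0113) became -0.14 among AT-rich barcodes (adjusted p = 0.395). RPS21, which fell by 0.28 on the log2 scale (standard error 0.06, edgeR adjusted p = 1.56e-04), is 1 of the 13 called in all 4 fits. RPS9 moved less, by -0.20, but its libraries were tighter, and 19 of 26 KO libraries lay below the lowest control.

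Other small subunit members moved less. RPS27A, made as a fusion with ubiquitin, fell by 0.15 on the log2 scale (standard error 0.05, edgeR adjusted p = 0.0112), and by 0.09 without TCTGCA and TACTAT, where the call was lost (adjusted p = 0.149). RPS4X, encoded on the X chromosome, was at -0.09 (adjusted p = 0.0367), a call near the threshold that was lost in 19 settings. RPSA, the 37/67-kDa laminin receptor, was at -0.03 (standard error 0.04, adjusted p = 0.533), with a sign that turned in 2 settings.

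Large subunit genes were called less often, 20 of 41, with a median of -0.11, and 40 of the 41 were below 0. The difference between the 2 subunits was not tested. RPL39 lines the exit tunnel for the nascent peptide, and ran from 6.36 through 7.54 to 8.04 log2 CPM in controls and from 6.47 through 7.17 to 7.68 in KO libraries. Of 26 KO libraries 25 lay below the control median and none below the lowest control, which was the shallowest library. Without it the lowest control was at 7.11, and 11 KO libraries lay below. Its log2 fold change was -0.35 (standard error 0.09, edgeR adjusted p = 0.00396), and -0.20 among AT-rich barcodes (adjusted p = 0.187).

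RPL36 (ENSG00000130255) was at 10.59, 10.82 and 11.05 in the lowest, median and highest control and at 9.98, 10.54 and 10.92 in KO libraries. It fell by 0.32 on the log2 scale (standard error 0.08, edgeR adjusted p = 0.00243), and 16 KO libraries lay below the lowest control. In the 6 KO libraries described below as low on chromosomes 4 and 8 it ran from 9.98 to 10.12, and in the other 20 from 10.39 to 10.92. Without the 6 its log2 fold change was -0.21 (adjusted p = 0.00255). RPL36 lies on chromosome 19 (start window chr19:5690285-5690314), as does the Cas9 target ZBTB7A (chr19:4043303-4066899). Of the 12 members on chromosome 19, 8 were lower and 0 higher, against 16.2% and 17.7% of all genes, with a median of -0.17. What part this position has in their falls was not tested. The smallest p of the large subunit list belonged to RPL13A, which also takes part in silencing of inflammatory mRNAs. Its levels went from 10.25, 10.48 and 10.80 in controls to 10.02, 10.26 and 10.61 in KO libraries, which is -0.26 on the log2 scale (standard error 0.05, edgeR adjusted p = 3.55e-05). RPL3, at the peptidyl transferase centre, fell by 0.16 on the log2 scale (standard error 0.04, adjusted p = 0.00479). RPL41, the shortest protein of the family, fell by 0.23 (standard error 0.07, adjusted p = 0.00995). RPL22, which is mutated in some tumours, was at -0.07 with a standard error of 0.05 (adjusted p = 0.334), and is taken up again with RPS6.

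No gene of the P stalk or the 5S particle passed the test. RPLP0, RPLP1 and RPLP2 form the stalk that recruits elongation factors, and 0 of the 3 passed the edgeR test (0 at an unadjusted p under 0.05). RPLP1 was at 11.60, 11.82 and 12.05 in the lowest, median and highest control and at 11.65, 11.83 and 12.06 in KO libraries, with ranges that all but coincided. Its log2 fold change was 0.05 (standard error 0.04, edgeR adjusted p = 0.381). RPLP2 was at 0.02 (standard error 0.04, adjusted p = 0.763), with 6 KO libraries above the highest control, and RPLP0 at -0.03 (standard error 0.04, adjusted p = 0.532). The signs of RPLP0 and RPLP2 turned in 2 settings each. RPL5 and RPL11 bind 5S rRNA and, when free, the p53 ligase MDM2. Their log2 fold changes were -0.03 (standard error 0.03, adjusted p = 0.55) and -0.05 (standard error 0.05, adjusted p = 0.478). The value of RPL11 averages KO libraries of different levels, 6 of which lay below every control, as described with RPS6. RPL5 was at 10.08 to 10.22 log2 CPM in 6 other KO libraries, described below as low on chromosomes 4 and 8. In the other 20 KO libraries it was at 10.22 to 10.38, and 4 of those 6 lay below every control.

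Of the 20 genes of the Diamond-Blackfan anemia list, 18 were measured and tested. There were 11 lower and 0 higher, against 16.2% and 17.7% of all genes, with a median log2 fold change of -0.13. Among AT-rich barcodes 2 of the 18 were lower, where 12.1% of all genes were, and the median was -0.09. With barcode class as a covariate 5 of the 18 were lower, where 14.9% of all genes were. Without TCTGCA and TACTAT 3 of the 18 were lower, where 13.5% of all genes were. RPS26, RPL5 and RPL11, all on this list, were among the 7 that did not pass.

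RPS27L (ENSG00000185088, chr15:63125872-63158021, minus strand, GRCh38), a paralog of RPS27 that is known as a target of p53, showed the largest change of the family. Control libraries ran from 7.98 through a median of 8.23 to 8.63 log2 CPM, on 148 to 1772 UMIs. KO libraries ran from 7.30 through 7.75 to 8.19, on 221 to 989 UMIs. All 26 KO libraries lay below the control median and 21 below the lowest control. The log2 fold change of -0.49 (standard error 0.08, edgeR adjusted p = 1.09e-05) corresponds to a level 29% lower. It was -0.37 among AT-rich barcodes (adjusted p = 0.00271), -0.46 without TCTGCA and TACTAT and -0.52 without the 6 KO libraries described below. The KO library with the highest value was GGCCAC, which also had the highest KO value of RPL13A (10.61 log2 CPM). For EPCAM 25 of 26 KO libraries lay below the lowest control, and GGCCAC was at 7.72, within the control range. For RPL36AL, in contrast, it had the lowest KO value (8.08). The reason was not tested.

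Of the other paralogs only RPL39L was tested, and its difference from RPS27L was not. RPL39L, expressed mainly in testis and in some cancer cells, was at 5.996, 6.258 and 6.477 in the lowest, median and highest control and at 5.794, 6.157 and 6.344 in KO libraries (log2 fold change -0.10, standard error 0.06, adjusted p = 0.185). RPL3L, a striated muscle gene, and RPL10L, a testis gene, were under the filter with 144 and 64 UMIs over all 37 libraries, and were not tested. Their partners RPL3 and RPL10 had 99979 and 35048 UMIs.

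RPS6 (ENSG00000137154), the phosphorylation target of S6 kinase, had KO libraries on both sides of the controls. Controls were at 11.15, 11.29 and 11.41 log2 CPM, while KO libraries ran from 10.91 through 11.16 to 11.60. Of the 26 KO libraries, 11 lay below the lowest control and 6 above the highest, and the log2 fold change was -0.07 (standard error 0.06, edgeR adjusted p = 0.411). The SD was 0.205 in KO and 0.0886 in control libraries. The 6 KO libraries above the controls (KO replicates 6, 14, 15, 16, 17 and 26, numbered in the order of the sample list) lay between 11.47 and 11.60 for RPS6, and between 7.30 and 7.60 for RPS27L, all among the 7 lowest KO values of that gene. They were picked for RPS6, so no test was made of them. The same 6 libraries lay below all other KO and all control libraries for 3 members, found after their values were seen. How many of all tested genes set these 6 libraries apart in this way was not counted. Whether this is particular to the family was therefore not tested. RPL11 was at 11.46 to 11.56 in the 6, at 11.72 to 11.99 in the other 20 KO libraries and at 11.67 to 11.95 in controls. RPL22, like RPL11 on chromosome 1, was at 8.01 to 8.14, 8.25 to 8.51 and 8.18 to 8.64. RPL13, on chromosome 16, was at 11.11 to 11.14, 11.18 to 11.62 and 11.24 to 11.50. For RPL11 and RPL22 the other 20 KO libraries overlapped the controls.

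**Figure D3:**
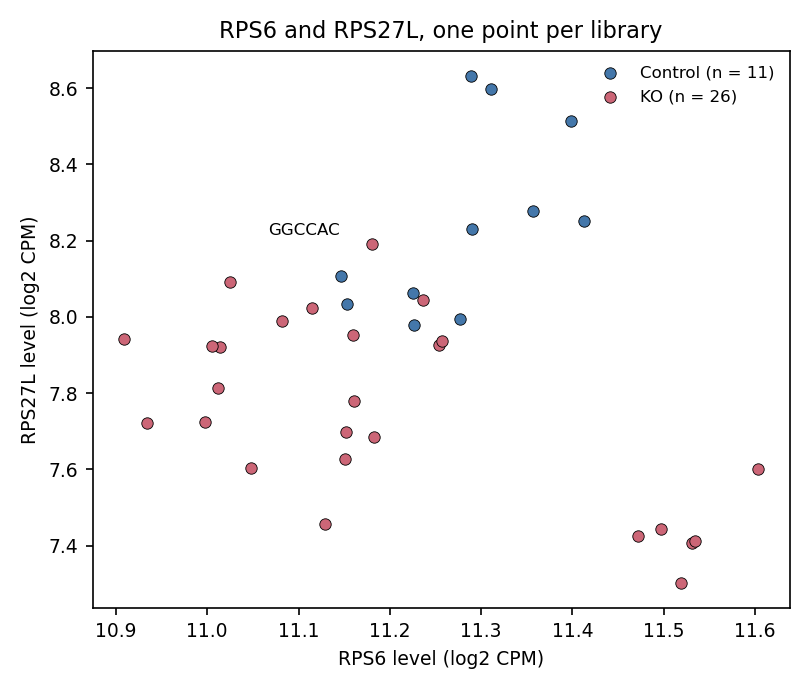
RPS6 against RPS27L, both in log2 CPM, with 1 point per library. A set of 6 KO libraries lies at the lower right, above 11.47 for RPS6 and at or below 7.60 for RPS27L, and the other KO libraries lie mostly to the lower left of the controls.

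A set of 6 other KO libraries (KO replicates 4, 5, 10, 22, 24 and 25) stood apart on chromosomes 4 and 8. In these the median of 237 non-member genes of chromosome 8 was 0.45 to 0.50 log2 units below the control mean, and that of 233 genes of chromosome 4 was 0.44 to 0.49 below it. All other KO libraries were at -0.05 or above for chromosome 8 and at -0.08 or above for chromosome 4, and 5 of the 6 had AT-rich barcodes. The labels do not mark these libraries. Ribosomal protein genes on both chromosomes moved with their neighbours. RPL36, on chromosome 19, and RPL5, on chromosome 1, were also lower in these libraries than in all other KO libraries. How many genes of other chromosomes were so was not counted.

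RPS20, a small subunit gene on chromosome 8, ranged from 9.29 to 9.41 in the 6 libraries, from 9.71 to 9.97 in the other 20 KO libraries and from 9.91 to 10.20 in controls. Its log2 fold change was -0.25 over all libraries (adjusted p = 0.00305) and -0.15 without the 6 (adjusted p = 9.89e-04, edgeR). RPL8 gave -0.23 and -0.15, and still passed the test without the 6 (adjusted p = 0.00154). RPL7 went from -0.24 to -0.12 and RPL30 from -0.18 to -0.07, and neither passed without the 6 (adjusted p = 0.105 and 0.11). RPL34, on chromosome 4, was lower by 0.34 on the log2 scale over all libraries (standard error 0.13, adjusted p = 0.0336). Without the 6 it was at -0.20 (adjusted p = 0.133). RPS20, RPL7, RPL8 and RPL30 are named here after their values were seen.

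**Figure D4:**
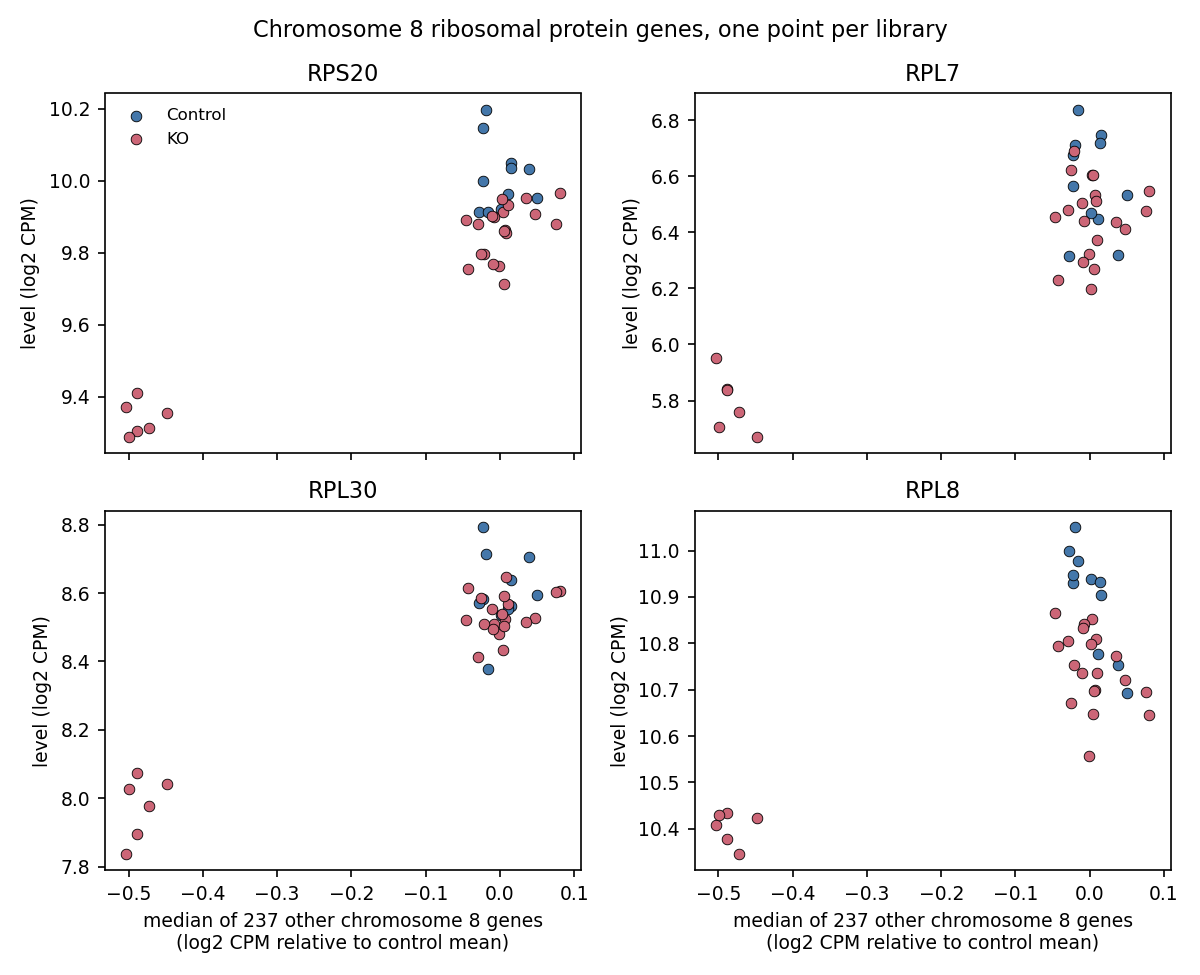
Level of the 4 ribosomal protein genes of chromosome 8 against the median of 237 other chromosome 8 genes, the latter relative to the control mean, with 1 point per library. The same 6 KO libraries form the cluster at the left of each panel, between -0.50 and -0.45, and the remaining KO and control libraries overlap near 0.

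Other members were also compared with their surroundings. Neighbours were the tested non-member genes within 10 Mb with a mean above 20 CPM. Pearson's r between a member and the median of its neighbours across the 26 KO libraries exceeded 0.8 for 10 members, among them RPL11 (0.94), RPL30 (0.94), RPL10 (0.92) and RPL36 (0.86). Over all members its median was 0.29 in KO and -0.014 in control libraries. These are descriptions over libraries that share a sequencing pool and differ in depth. RPL11 also set apart the 6 KO libraries above every control for RPS6. Whether those libraries differ from others by position in the genome was not tested. The median difference between KO and control in mean log2 CPM was -0.118 for members. For member minus neighbours it was -0.121, and 73 of 76 members were below 0. What part position in the genome has in the family's fall was not tested.

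Within groups, members varied together to different degrees. With group means removed, the correlation of each member with the sum of the others over 37 libraries had a median of 0.52. It was highest for RPS18 (0.85), RPL32 (0.83), RPS15 (0.82) and RPS29 (0.81), exceeded 0.7 for 21 members, and was below 0.2 for 10. RPLP2 (-0.09), RPL11 (-0.08) and RPL10 (-0.07), 3 of these 10, did not follow the sum. The median SD of tested members above 10 CPM was 0.143 in control and 0.127 in KO libraries on the log2 scale. Members with the largest SDs among those above 10 CPM were RPL36A (0.425 in controls), RPL39 (0.423) and RPL10 (0.417). For RPL10 the libraries of each group lay at separate levels. Controls were at 7.87 (ATATAG) to 8.18 (TACTAT) or at 8.62 (CGGTGG) to 8.89 (TTGAAA) log2 CPM. KO libraries were at 7.72 (GGCCAC) to 8.25 (CCAACC) or at 8.47 (CGTGGG) to 8.85 (AAAACT). The reason was not tested.

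Levels spanned a wide range. The mean was above 1000 CPM for 41 members and under 100 CPM for 12, with a median of 1019 CPM against 34.3 CPM for all tested genes. Of the 100 most abundant genes, 38 were members. RPS14 was highest (4115 CPM), and RPLP1 (3672 CPM) was among the 3 highest. RPS26 (4.93 CPM), RPL21 (17 CPM) and RPS3A (20.1 CPM) were the lowest tested, and the ratio from highest to lowest was 834.

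The low levels are uncertain for genes with many near-identical copies. Annotated pseudogenes named after members had 1104 rows in the table and 2.69% of the UMIs of members and pseudogenes together. For 4 members the pseudogenes held more UMIs than the gene: RPL21 (12204 against 1680), RPL7 (9856 against 8196), RPS3A (2810 against 1962) and RPS26 (701 against 469). These include the 3 lowest members. RPL36A also overlaps a readthrough transcript with HNRNPH2. For RPS26, with 1 to 29 UMIs per library, the fold change of -0.02 had a standard error of 0.17, and its sign turned in 12 settings.

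**Figure D5:**
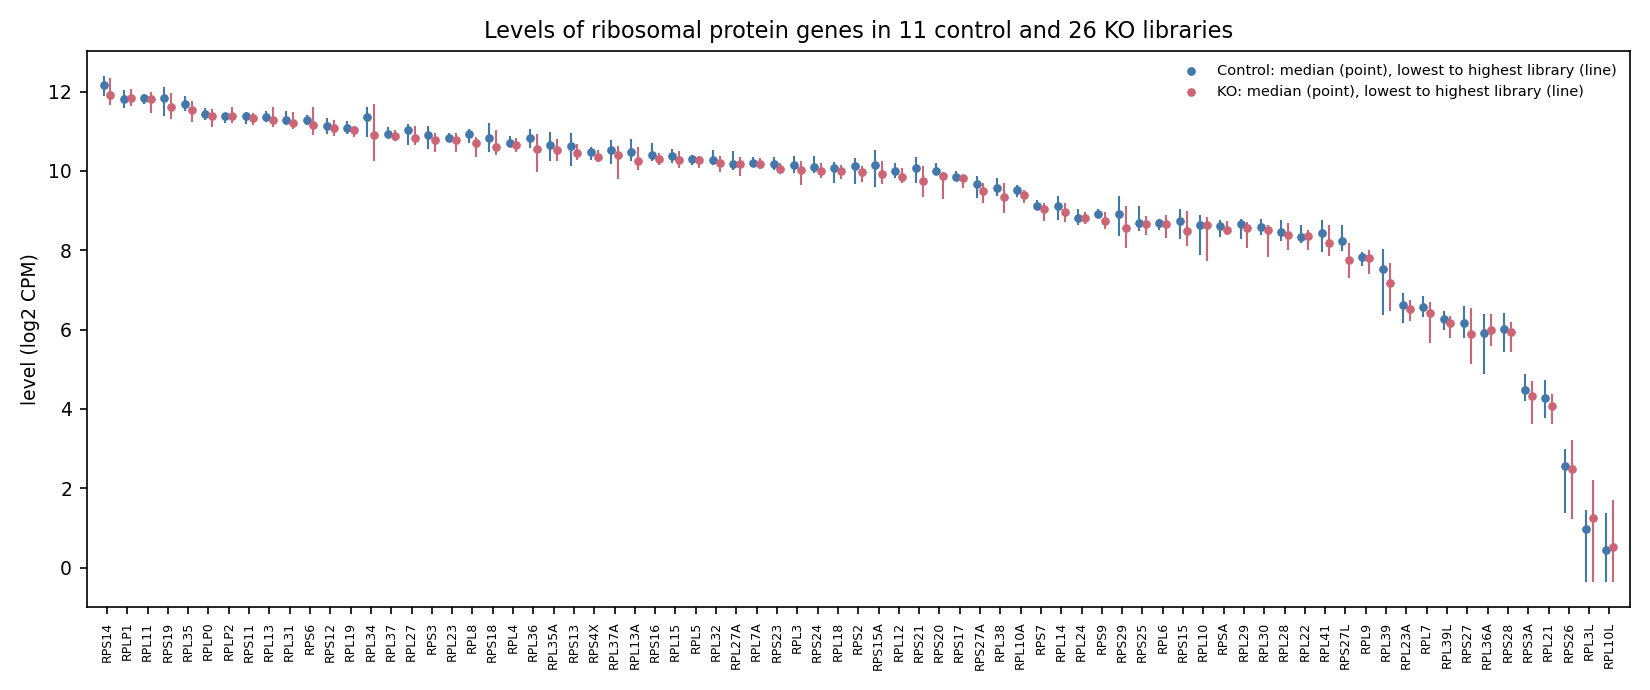
Level of 75 of the 78 ribosomal protein genes in log2 CPM, ordered by mean CPM, with the median (point) and the lowest to highest library (line) of 11 control and 26 KO libraries. Group ranges overlap for every gene drawn, levels decline slowly from RPS14 to RPL9, and RPS3A, RPL21, RPS26, RPL3L and RPL10L lie far below the rest.

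Ribosome components and paralogs outside the rule gave 5 of 7 genes lower and 0 higher, against 16.2% and 17.7% of all genes, and their median was -0.15 on the log2 scale. Among AT-rich barcodes 2 of the 7 were lower, where 12.1% of all genes were. With every library thinned to the smallest total 1 was lower, where 2.79% of all genes were. RPL22L1, the paralog of RPL22, had the largest fall, from 5.83, 6.09 and 6.40 in the lowest, median and highest control to 5.16, 5.81 and 6.23 in KO libraries (log2 fold change -0.34, standard error 0.08, edgeR adjusted p = 9.62e-04). RPL36AL, a paralog of RPL36A, fell by 0.23 on the log2 scale (standard error 0.06, adjusted p = 0.00226). FAU and RACK1 were also among the 5, and RPL26L1 and RPL7L1 did not pass.

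Of 17 tested translation factors and associated genes, 4 were lower and 0 higher (23.5% lower), with a median of -0.07. This share is near the 24.7% lower among all genes of 100 CPM or more and is no result about the list. PABPC1, the poly(A)-binding protein, on chromosome 8, was at -0.25 (standard error 0.07, edgeR adjusted p = 0.00722), and NPM1, a nucleolar chaperone of ribosome assembly, at -0.20 (standard error 0.06, adjusted p = 0.0111). Without the 6 KO libraries low on chromosomes 4 and 8 PABPC1 was at -0.14 and NPM1 at -0.12, where NPM1 no longer passed. TPT1, whose mRNA also carries a TOP tract, was at 0.12 (adjusted p = 0.0703), with 7 KO libraries above the highest control. Among 12 genes that control translation of these mRNAs, 3 were lower and 0 higher, with a median of -0.02. The 25% lower stands beside 16.2% of all genes tested and 24.7% of those of 100 CPM or more. Several of the 12, RPTOR among them, lay under 100 CPM. With 3 calls this is not read as a result about the list. MYC, an activator of ribosome production that also lies on chromosome 8, was at -0.50 (standard error 0.12, adjusted p = 0.00188), and at -0.36 without those 6 libraries. RPTOR, the mTORC1 scaffold, was at -0.38 (standard error 0.10, adjusted p = 0.00339) at a mean of 11.5 CPM. LARP1 and MTOR did not pass, with log2 fold changes of -0.04 and 0.04.

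Members with a TOP tract were found among those that fell and those that did not pass. Among members with a promoter entry, 26 of 32 that were lower carried a tract (81.2%), as did 25 of 28 that were tested and not called (89.3%). RPS27L, with the largest fall, had none, while RPLP1 and RPLP2, near 0, had tracts of 11 and 13 bases.

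Outside the lists, the tested genes whose group-centred levels were most like the summed members over the 37 libraries were SNHG5 (r = 0.76), NDUFS4 (0.75), POLR2I (0.74), ATP5ME (0.74) and ENSG00000263809 (0.73), against a median r of 0.0059 over all such genes. SNHG5 is the host transcript of small nucleolar RNAs and fell by 0.34 on the log2 scale (standard error 0.07, edgeR adjusted p = 4.46e-04). ATP5ME, a subunit of mitochondrial ATP synthase, fell by 0.65 (standard error 0.08, adjusted p = 5.53e-08). Mitochondrially encoded genes held 4.63% to 8.09% of UMIs in KO and 5.05% to 6.95% in control libraries. The nuclear RNAs MALAT1 and NEAT1 held 0.282% to 0.601% in KO and 0.233% to 0.658% in control libraries, and only 4 of 26 KO libraries were below the control median. Their part in the results was not tested.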

How the data were processed

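K562 cells were profiled by a bulk form of SCRB-seq, in which oligo-dT primers carry a sample barcode and a UMI and 3′ ends are sequenced. The authors processed the reads with zUMIs (version not given in the sources used here) and, per the labels, STAR 2.6.0a on hg38 with an Ensembl annotation, and deposited UMI counts per gene, not normalized, with 1 column per library. Whether strand was used in counting is not given in the sources used here.

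Counts were used as deposited. All 37 columns were matched to the sample labels, and 31323 of 32055 identifiers had a GENCODE 44 symbol. R 4.3.3 with edgeR 4.0.16 was used (filterByExpr, TMM, robust quasi-likelihood fit on group, two-sided, Benjamini-Hochberg over all genes tested, adjusted p under 0.05). Levels are log2 CPM with a prior count of 2, on which a gene with 0 UMIs takes a value near -0.35. Standard errors were taken as the size of the log2 fold change over the root of the F statistic. limma 3.58.1 (the study's tool) and DESeq2 1.42.0 were alternatives, as were other scalings, filters, a barcode class term, subsets of libraries, thinning and leaving out each library. The fit was tested on simulated data. No 2 of the 380 library pairs within groups were identical, so all were kept. The chi-square per degree of freedom was 1.16 at the lowest, with a median of 5.53. This check finds copied columns only, and repeat libraries of 1 clone or culture may remain among the 37. Gene spans are from GENCODE 44.

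The members and lists were chosen with earlier results of these data known. Named with values are the 6 called members with the largest falls (none rose), the 3 highest, 3 lowest and 3 most variable members, a list of members with known roles and their paralogs, and of each companion list the called genes with the 2 largest changes. Members and list genes outside this rule, the 2 control and 6 KO libraries left out together, and the comparison with neighbouring genes were chosen after the values were seen. A few members and list genes are counted in all totals but are not reported here by name, and are left out of the plots of single genes.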

Additional observations from a re-analysis of the deposited data

How the results depend on the processing

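In 52 alternatives 0 members were higher in KO, and the median log2 fold change of members stayed below 0, from -0.13 to -0.08. The number lower (43) stayed within 29 to 46, except that it was 20 among AT-rich barcodes, 18 without the control libraries TCTGCA and TACTAT, and 11 with every library thinned to 563235 UMIs, where 2.79% of all genes were lower. Leaving out 1 library gave 29 to 44. For small subunit genes (22) the count was 14 with library size alone, 13 with barcode class as covariate, 10 among AT-rich barcodes, 7 thinned and 8 without both controls, and leaving out 1 library gave 14 to 22, with 14 without TACTAT or TCTGCA (Control replicates 8 and 9). For large subunit genes (20) the counts were 9, 4 and 9 among AT-rich barcodes, thinned and without both controls, and 14 to 22 with 1 library left out. Past both thresholds the count of 0 became 1 (RPS27L) with limma-voom, with every gene of at least 1 count, without GGCCAC, without the shallowest library and without the 6 KO libraries low on chromosomes 4 and 8, and 0 to 1 with 1 library left out. The difference in summed share stayed between -0.65 and -0.38 percentage points. With library size alone, 2240 genes were higher and 1322 lower, against 1882 and 1724 with TMM, and the median of all genes was 0.028.

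Of 1921 values for named genes 1759 kept their direction and side of the threshold, 133 lost the call and 29 changed sign, all of genes that did not pass. With library size alone the log2 fold change was 0.0135 for RPS26, 0.00084 for RPL36A, 0.0060 for RPL5 and 0.00061 for RPLP0. Without TCTGCA and TACTAT it was 0.0284 for RPS26, 0.0698 for RPL36A, 0.0109 for RPSA and 0.0040 for RPLP0. Thinning gave 0.0558 for RPS3A, 0.0955 for RPL36A and 0.0828 for RPSA. RPL36A was at 0.0225 with barcode class and 0.0568 among AT-rich barcodes, RPS26 at 0.0133 without GGCCAC, RPL5 at 0.0099 and RPLP2 at -0.0108 without the 6 KO libraries, and RPLP2 at -0.0028 with limma-voom quality weights. With 1 library left out RPS26 lay between -0.0774 and 0.0588 and RPL36A between -0.073 and 0.0187. The cause was not tested. No paired analysis was possible because the labels give no replicate numbers. Depth limits RPS26, RPL3L and RPL10L, with few UMIs per library.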
